A study of Mus musculus with 28 samples.

Results

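Skin of Il4ra-deficient and Il13-deficient mice that had received allogeneic spleen cells was compared, 4 mice against 4, out of 24 mice and 28 arrays in the whole study. The members were chosen from the labels by recipient genotype and donor, and they comprise 9 arrays, since mouse 6232 was hybridised on 2 arrays that were averaged. The study transferred spleen cells into mice of the BALB/c strain as a model of chronic graft-versus-host disease, in which donor T cells attack the skin and the scarring disease scleroderma is modelled. Every recipient lacked Rag2, without which no T or B cells form, and skin was taken 2 weeks after the transfer. Donor cells were either allogeneic, from B10.D2 mice, or syngeneic, from BALB/c mice. The Il4ra-deficient group, Rag2-/- Il4ra-/- given B10.D2 cells, comprised mice 4533, 4534, 5718 and 5720. The Il13-deficient group, Rag2-/- Il13-/- given B10.D2 cells, comprised mice 6223, 6224, 6226 and 6232. Other groups used beside them were Rag2-/- mice given B10.D2 cells (5 mice), Il4ra-deficient mice given BALB/c cells (3 mice) and Il13-deficient mice given BALB/c cells (4 mice). The comparison asks what loss of the receptor for both cytokines adds to loss of IL-13 alone. As a model it is limited in that the transferred B10.D2 cells carry intact Il13 and Il4ra, so each deficiency concerns cells of the recipient. The label of mouse 5718 reads IL14Ra, and mouse 5718 was taken as Il4ra-deficient because the study design names only IL4Ra.

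IL-4 and IL-13 are the signature cytokines of type 2 immunity. IL-4 binds IL-4Rα paired with the common γ chain or with IL-13Rα1, whereas IL-13 signals through IL-4Rα paired with IL-13Rα1, and both lead to phosphorylation of the transcription factor STAT6. Loss of IL-4Rα in the recipient therefore removes the response of skin cells to either cytokine, and loss of Il13 removes that cytokine from recipient cells while leaving IL-4 signalling in place. In skin the pathway is known for alternative activation of macrophages, for eotaxin production by fibroblasts and for scarring.

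Skin RNA was labelled with Cy3 and hybridised beside Cy5-labelled RNA pooled from mouse cell lines (Universal Mouse Reference). Values below are log2 ratios of skin to reference RNA, so that 0 is equality with the reference; the deposited ratios ran the other way and their sign was turned. Differences are Il4ra-deficient minus Il13-deficient unless another pair is named, and per-mouse values follow the order in which the mice were named above. Of 42 keratinocyte genes 40 had a median above 0 over all 24 mice (median 4.77), and of 26 cell division genes 0 did (median -1.98). In the 8 mice compared, the defining markers of skin were high, with Krt14 between 3.87 and 4.93. The fat gene Adipoq lay between 5.70 and 6.53 and the muscle gene Ckm between 5.54 and 6.20. In contrast, the B cell gene Ms4a1 lay between -5.85 and -3.59. In such bulk samples, fewer cells of a type and less RNA per cell cannot be told apart.

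Mouse 6224 stood apart from the other Il13-deficient mice. Over genes its profile correlated with theirs at r = 0.851 to 0.887, against 0.945 to 0.965 among the other 3 and 0.957 to 0.971 among the Il4ra-deficient mice. On the first principal component of all 24 mice, mouse 6224 lay at 62.7 and the other Il13-deficient mice at 3.58 to 27.1. The Il4ra-deficient mice lay at 14.9 to 20.4, and Rag2-/- mice given B10.D2 cells at 28.0 to 60.8, the highest of them close to mouse 6224. Between the 2 groups, pairs without mouse 6224 correlated at 0.945 to 0.969, a range that overlaps those within the groups. The first 2 digits of the mouse numbers, which may mark separate experiments, were 45 and 57 for Il4ra-deficient mice and 62 for all Il13-deficient mice, so genotype and number series cannot be told apart. Results are given with and without mouse 6224 where it moves them.

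No gene separated the genotypes at the threshold of an adjusted p under 0.05. Myeloid and acute-phase genes such as Clec4d and Saa3, T cell genes such as Cd2 and the eotaxin gene Ccl11 lay lower in Il4ra-deficient skin. The interferon-stimulated gene Xaf1, the fatty acid synthase gene Fasn and the chemokine receptor gene Ccr6 lay higher. None of these differences passed the adjustment over all genes. Of 14783 genes tested with limma, 0 passed (0%), and the lowest adjusted p was 0.268. An unadjusted p under 0.05 was found for 625 genes (4.23%), with 300 higher (2.03%) and 325 lower (2.2%) in Il4ra-deficient skin. At least a 2-fold difference was seen for 173 genes (1.17%), 87 higher (0.589%) and 86 lower (0.582%). Among 12966 genes measured in all 8 mice, the groups did not overlap for 378 (2.92%), with Il4ra-deficient mice higher for 213 (1.64%) and lower for 165 (1.27%). With so few mice, groups also fail to overlap for some genes by chance, so non-overlap by itself does not show a genotype difference. Some genes reach the unadjusted threshold by chance as well.

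These counts do not show that the genotypes act alike. The median absolute difference was 0.14, and the 95% interval reached a median of 0.46 to either side of the estimate, with quartiles of 0.34 and 0.70. Il13-deficient mice varied more among themselves, with a median SD of 0.28 against 0.19, and their SD was the higher for 71.0% of genes. Without mouse 6224 their median SD was 0.21. The plot of difference against p for all genes labels some of the named genes, among which Ccl2 and Retnla lie below the dashed line.

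**Figure D1:**
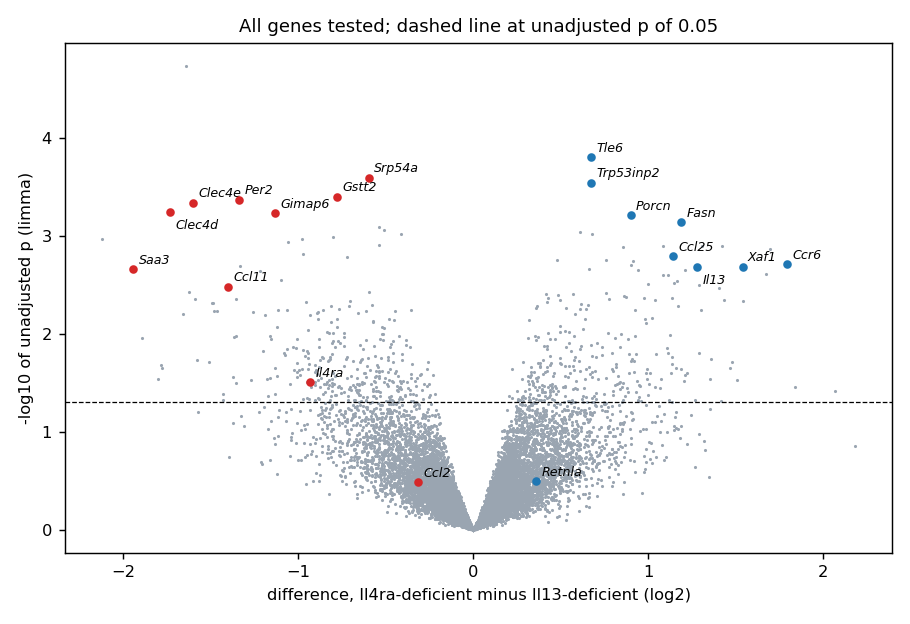
Each point is 1 of 14783 genes, with the log2 difference (Il4ra-deficient minus Il13-deficient, both given B10.D2 cells) on the x axis and -log10 of limma's unadjusted p on the y axis. The dashed line marks an unadjusted p of 0.05; the 625 genes above it include Clec4d, Saa3 and Ccl11 on the left and Fasn, Xaf1 and Ccr6 on the right, and 0 passed after adjustment.

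The deleted genes and their pathway were examined first. Il13 ratios were 0.65, 0.65, -0.62 and 0.81 in Il4ra-deficient mice and -0.27, -1.40 and -1.05 in Il13-deficient mice 6223, 6226 and 6232, with no value for 6224. Mouse 5718 thus lay within the range of the Il13-deficient mice, and the other Il4ra-deficient mice lay above it. The difference was 1.28 (95% interval 0.53 to 2.03, adjusted p = 0.796), that is 2.43-fold. Il4ra, which encodes the receptor chain, was at 0.72, 0.50, 0.39 and 0.85 in mice that lack it and at 1.48, 2.88, 0.53 and 1.30 in Il13-deficient mice. The ranges overlapped through mouse 6226, and mouse 6224 was the highest. The difference was -0.93 (95% interval -1.77 to -0.09, adjusted p = 1) and -0.49 without mouse 6224. Where the probes of Il13 and Il4ra lie relative to the deleted parts is not given in the sources used here, and donor cells can supply both transcripts, so these values do not check the labels. Rag2, absent from recipients of both groups, averaged 0.10 ± 0.13 (SD, n = 4) and 0.03 ± 0.04 (SD, n = 4).

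The other ligand and the signalling genes lay close together. Il4 was at 0.58, 0.65, 0.21 and 0.57 in Il4ra-deficient and 0.11, 0.31, -0.02 and 0.23 in Il13-deficient mice, a difference of 0.34 (95% interval -0.001 to 0.69, adjusted p = 1). All but mouse 5718 of the Il4ra-deficient mice lay above the Il13-deficient range. Il13ra1, the partner chain, differed by 0.28 (95% interval -0.29 to 0.85) and Stat6 by -0.03 (95% interval -0.32 to 0.27), both with adjusted p = 1. Stat6 had the opposite sign under 4 alternatives, among them the fit without mouse 6224 (0.05). Il13ra2, the decoy receptor for IL-13 and itself a target of the pathway, was not tested because too few mice of some groups gave a value; it read 1.73, 0.01 and 0.81 in 3 Il4ra-deficient and 1.40, 0.69 and 0.42 in 3 Il13-deficient mice, ranges that overlapped. Over the 18 tested of 25 genes for ligands, receptors and signalling, the median difference was -0.01, beside 0.01 for all genes tested. The unadjusted threshold was reached by Il13 (higher) and Il4ra (lower), the 2 deleted genes themselves.

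Genes that IL-4 and IL-13 are known to induce were shown next, beginning with upstream sequence of Retnla (the macrophage-derived protein RELMα), Ccl17 (the chemokine TARC) and Chil3 (the chitinase-like protein Ym1), which are printed because all belong to the response list and carry STAT-type motifs. The 250 bases before the gene start are from RefSeq, build GRCm38.p6, 5′ to 3′ on the strand of the gene, and capitals mark TTC and GAA with either 4 bases between them, the spacing that STAT6 prefers, or 3 bases (TTCNNNGAA), the spacing bound by STAT proteins in general, together with the bases between. Coordinates are chr16:48842359-48842608 (+ strand) for Retnla, chr8:94810203-94810452 (+ strand) for Ccl17 and chr3:106167565-106167814 (- strand) for Chil3.
Retnla: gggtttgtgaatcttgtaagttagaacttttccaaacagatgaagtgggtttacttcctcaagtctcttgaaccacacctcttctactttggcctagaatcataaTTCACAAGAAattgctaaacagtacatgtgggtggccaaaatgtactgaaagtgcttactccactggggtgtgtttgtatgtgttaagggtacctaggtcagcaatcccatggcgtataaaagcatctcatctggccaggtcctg
Ccl17: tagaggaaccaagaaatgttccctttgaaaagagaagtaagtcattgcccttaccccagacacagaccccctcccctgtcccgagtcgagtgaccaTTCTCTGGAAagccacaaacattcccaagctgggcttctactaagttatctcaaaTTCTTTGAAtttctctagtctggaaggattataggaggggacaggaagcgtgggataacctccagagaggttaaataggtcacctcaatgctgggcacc
Chil3: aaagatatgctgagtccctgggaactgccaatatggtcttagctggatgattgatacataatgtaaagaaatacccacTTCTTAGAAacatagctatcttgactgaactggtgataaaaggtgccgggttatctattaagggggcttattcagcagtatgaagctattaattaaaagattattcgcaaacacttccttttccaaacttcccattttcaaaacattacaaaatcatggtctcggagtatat

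Retnla holds 1 match with the 4-base spacing that starts 145 bases before the gene start, Ccl17 holds 1 match to each spacing, at 154 and 99 bases, and Chil3 holds 1 match with the 3-base spacing at 172 bases. Both patterns read the same on either strand, and they were searched separately. The 4-base spacing occurred in 5 of the 19 response genes with a window (26.3%), namely Retnla, Ccl17, Clec7a, Pdcd1lg2 and Tfec, against 551 of 11816 tested genes with a window (4.66%) and 5.86% of all 27025 windows. The 3-base spacing occurred in 3 of 19 (15.8%), against 6.02% of tested genes and 7.18% of all windows. Among genes with an unadjusted p under 0.05, the 4-base spacing was found in 8 of 251 that lay higher (3.19%) and 13 of 245 that lay lower (5.31%), and the 3-base spacing in 6.77% and 7.76%. These shares are descriptions; a match is not a shown binding site, and the response list was not drawn independently of STAT6.

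The 3 genes printed above had no common direction. Retnla read 6.36, 5.57, 6.43 and 5.35 in Il4ra-deficient mice and 6.06, 4.36, 5.48 and 6.38 in Il13-deficient mice, with wide overlap and mouse 6224 lowest. Its difference was 0.36 (95% interval -0.37 to 1.09, adjusted p = 1), and -0.04 without mouse 6224. Ccl17 read 1.62, 2.33, 2.35 and 2.01 against 2.14, 1.26, 0.96 and 1.32, a difference of 0.66 (95% interval -0.23 to 1.54, adjusted p = 1), with mouse 6223 of the Il13-deficient group inside the Il4ra-deficient range. Chil3 read -3.40, -3.80, -3.32 and -2.56 against -2.20, 1.55, -1.44 and -3.79, where mouse 6224 was far above all others. The difference was -1.80 (95% interval -3.39 to -0.21, adjusted p = 1), and -0.79 without mouse 6224.

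Ccl11, which encodes eotaxin, the attractant of eosinophils and a standard target of IL-4 and IL-13, was the member of the response list with the smallest p. Its ratios were 5.11, 4.46, 4.28 and 5.39 in Il4ra-deficient mice and 6.47, 6.74, 5.49 and 6.15 in Il13-deficient mice. Every Il4ra-deficient mouse lay below every Il13-deficient mouse, although mice 5720 and 6226 lay close together. The difference was -1.40 (95% interval -2.27 to -0.53, adjusted p = 0.891), that is 2.64-fold lower, and -1.23 without mouse 6224. In Rag2-/- mice given B10.D2 cells Ccl11 averaged 6.01 ± 0.58 (SD, n = 5), near the Il13-deficient mean of 6.21 ± 0.54 (SD, n = 4) and above the Il4ra-deficient mean of 4.81 ± 0.52 (SD, n = 4); neither deficient group passed against them (adjusted p = 0.194 for Il4ra-deficient and 0.993 for Il13-deficient mice).

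Of the other response genes, Slc7a2, a carrier of arginine, read 0.58, 1.02, 0.73 and 1.12 against 2.25, 1.32, 1.71 and 0.88, a difference of -0.68 (95% interval -1.35 to -0.01). Il4i1, a secreted amino acid oxidase induced by IL-4, read 1.04, 1.58, 1.18 and 1.21 against 2.11, 2.16, 1.38 and 1.62, a difference of -0.57 (95% interval -1.07 to -0.06). In both genes 1 Il13-deficient mouse, 6232 and 6226 respectively, fell within the Il4ra-deficient range. Postn, the matrix protein periostin, read 3.59, 4.14, 4.0 and 3.80 against 3.25, 1.64, 3.85 and 3.60, a difference of 0.80 (95% interval 0.05 to 1.55) that was 0.32 without mouse 6224, the lowest. Arg1, the arginase of alternatively activated macrophages, differed by -0.21 (95% interval -0.94 to 0.53), and its sign turned under 4 alternatives. Mrc1, the mannose receptor, differed by -0.43 (95% interval -1.53 to 0.68), and Ccl24, the second eotaxin, by 0.45 (95% interval -0.34 to 1.24) and by 0.07 without mouse 6224. All of these had adjusted p = 1. Over the 23 tested of 30 response genes, 1 reached the unadjusted threshold higher (Postn) and 4 lower (Chil3, Ccl11, Il4i1 and Slc7a2), and the median difference was -0.09, or -0.04 without mouse 6224. The mean over 19 of these genes measured in every mouse ran from 2.50 to 2.69 in Il4ra-deficient and from 2.39 to 2.79 in Il13-deficient mice, so the Il4ra-deficient range lay inside the other.

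**Figure D2:**
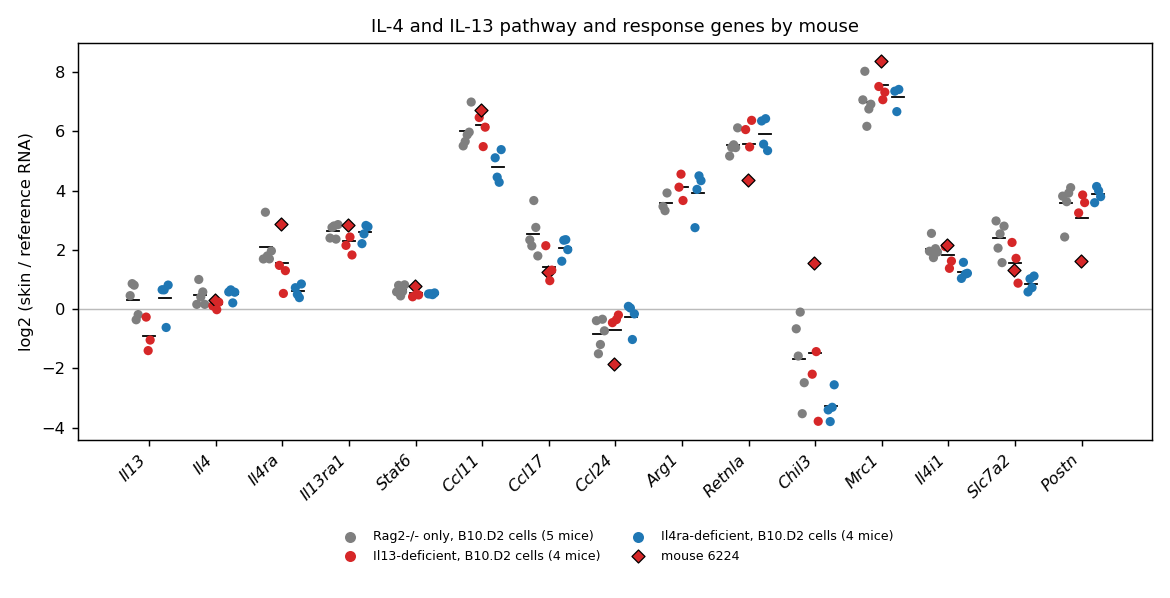
Log2 ratio of skin to reference RNA (y axis) for genes of the IL-4 and IL-13 pathway, each point 1 mouse and each bar a group mean: Rag2-/- (grey), Il13-deficient (red; mouse 6224 as a diamond) and Il4ra-deficient mice (blue), all given B10.D2 cells. Ccl11 is the gene whose red and blue points do not overlap (Il13-deficient 5.49 to 6.74, Il4ra-deficient 4.28 to 5.39).

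The genes furthest apart by p, among those with all 8 mice measured and no overlap, had mixed functions. The smallest p on the higher side belonged to Tle6, a member of the Groucho family of corepressors, and to Trp53inp2, a factor in autophagy. Tle6 read -1.04, -1.14, -0.74 and -0.92 in Il4ra-deficient mice and -1.41, -1.99, -1.73 and -1.42 in Il13-deficient mice, a difference of 0.68 (95% interval 0.37 to 0.98). Trp53inp2 read 2.15, 2.21, 2.54 and 2.53 against 1.92, 1.43, 1.78 and 1.60, also a difference of 0.68 (95% interval 0.35 to 1.00). Both kept most of this distance without mouse 6224, at 0.56 and 0.59. Porcn, the acyltransferase that allows Wnt proteins to be secreted, read 0.54, 0.58, 1.17 and 0.79 against 0.42, -0.46, -0.23 and -0.25, a difference of 0.90 (95% interval 0.44 to 1.36). The remaining genes on this side were Fasn (1.19), Tcim (0.61), the cell cycle inhibitor gene Cdkn2b (0.68), the myeloid receptor gene Cd300e (0.86) and Ccl25 (1.14). All 8 had an adjusted p of 0.771 except Ccl25 (0.796).

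On the lower side the smallest p belonged to Srp54a, a subunit of the signal recognition particle, and Gstt2, a glutathione transferase. Srp54a read -0.44, -0.42, -0.37 and -0.39 in Il4ra-deficient mice and 0.17, 0.47, 0.17 and -0.03 in Il13-deficient mice, a difference of -0.60 (95% interval -0.88 to -0.32). The Il4ra-deficient mice were nearly identical, and the absence of overlap was a condition for naming a gene here. Gstt2 read 0.20, -0.09, -0.30 and -0.20 against 0.58, 1.15, 0.51 and 0.49, a difference of -0.78 (95% interval -1.16 to -0.39). Mouse 6224 was the highest for both genes. Over 23 alternatives, among them the fit without mouse 6224, the difference stayed between -0.93 and -0.62 for Gstt2. For Srp54a it stayed between -0.67 and -0.51. Next came Clec4e (-1.60), Clec4d (-1.73), the lymphocyte GTPase gene Gimap6 (-1.13), Fam177a (-0.54), Dennd4a (-0.51) and the kinase gene Fyn (-0.41), the last a Src-family kinase of T cell receptor signalling. All 8 had an adjusted p of 0.771, and 1 of the probes of Dennd4a had the opposite sign (0.20, measured in 2 and 3 mice).

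Among 43 gene lists, 0 had a member that passed. The lists of neutrophils, acute-phase and antimicrobial proteins and T cells had the lowest medians, and those of the type I interferon response and lipid synthesis the highest among lists with more than 2 tested genes; the eosinophil list had a median of 0.91 over 2 tested genes. Their values are set beside the median of 0.01 over all genes tested, and beside 2.03% and 2.2% of all genes that reached the unadjusted threshold higher and lower. Of all 14783 genes tested, 7584 lay higher and 7199 lower in Il4ra-deficient skin. Members of a list are measured in the same mice, so counts of members by direction are not counts of independent results. Mouse 6224 moved several medians by more than their remaining size, as the plot of list medians shows.

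**Figure D3:**
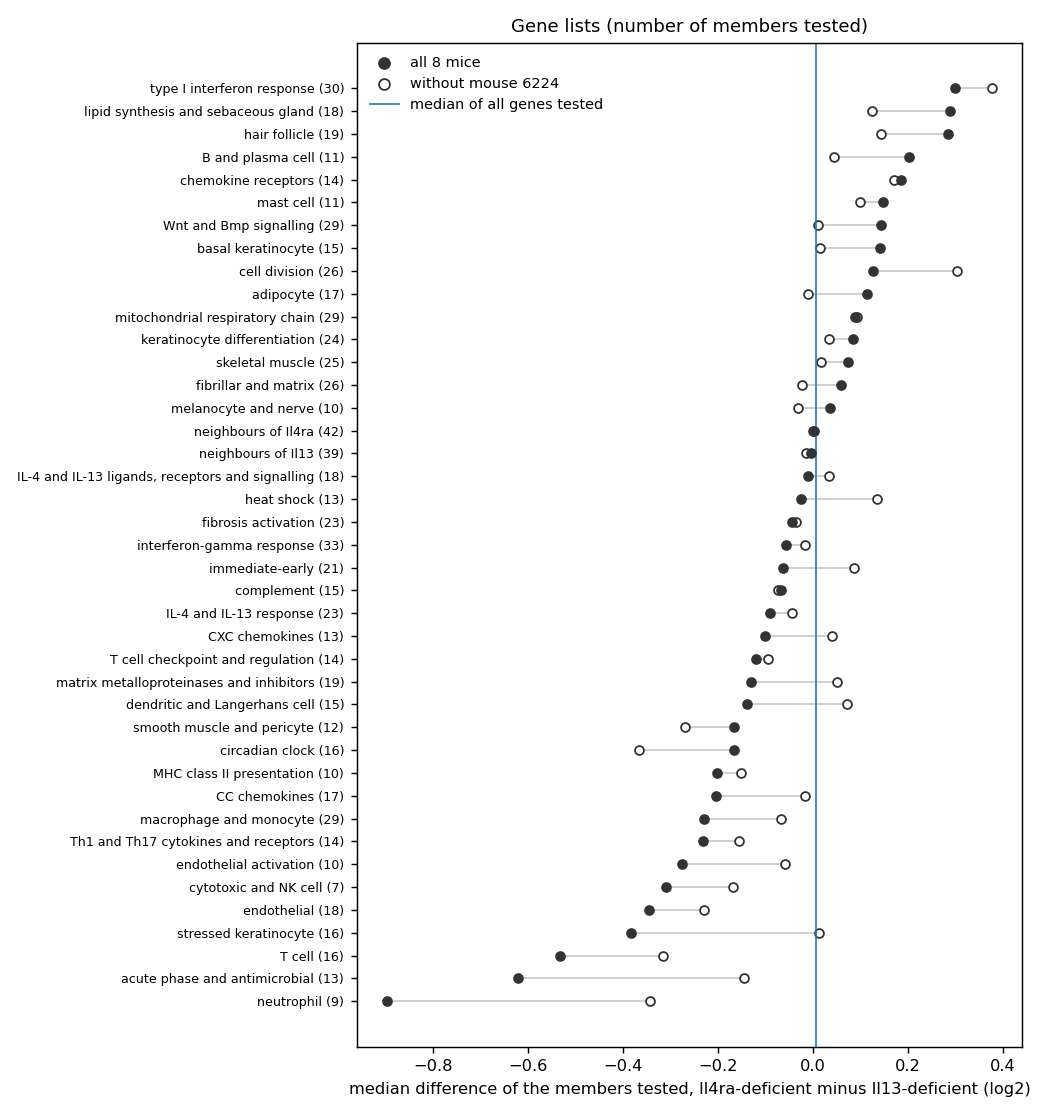
Median log2 difference (x axis, Il4ra-deficient minus Il13-deficient, B10.D2 cells) of the tested members of each gene list, with all 8 mice (filled) and without mouse 6224 (open); the number tested stands beside each name and the blue line marks the median of all genes tested. Neutrophil (-0.90), acute-phase (-0.62) and T cell (-0.53) lists lie furthest left, and each moves towards 0 without mouse 6224.

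Of 9 tested neutrophil genes 8 lay lower and 1 higher in Il4ra-deficient skin, with a median of -0.90 (-0.34 without mouse 6224). Clec4d and Clec4e encode the paired lectin receptors MCL and Mincle of neutrophils and monocytes. Clec4d read -0.43, -0.71, -0.70 and -0.85 in Il4ra-deficient mice and 0.57, 2.96, 0.04 and 0.65 in Il13-deficient mice. Every Il4ra-deficient mouse lay below 0 and every Il13-deficient mouse above it, mouse 6224 by far the most. The difference was -1.73 (95% interval -2.62 to -0.84, adjusted p = 0.771), and -1.10 without mouse 6224. Clec4e read -1.45, -1.53, -1.91 and -2.10 against -0.42, 1.29, -1.19 and -0.27, also without overlap, with a difference of -1.60 (-1.12 without mouse 6224). Lcn2, the neutrophil and keratinocyte protein lipocalin-2, read -0.52, -0.44, -0.60 and -0.75 against 0.10, 3.46, 0.36 and -0.17, and its difference of -1.51 (95% interval -2.75 to -0.27, adjusted p = 1) was -0.67 without mouse 6224. These 3 were the members of the neutrophil list past the unadjusted threshold, of 9 tested. The mean over 6 neutrophil genes was -0.68 to -0.42 in Il4ra-deficient mice, 2.54 in mouse 6224 and -0.07 to 0.26 in the other 3 Il13-deficient mice.

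Saa3, a serum amyloid of the acute phase, read 1.23, 0.63, 1.02 and 0.81 in Il4ra-deficient mice and 2.27, 5.29, 1.52 and 2.39 in Il13-deficient mice. The groups did not overlap, and mouse 6224 lay highest. The difference was -1.94 (95% interval -3.10 to -0.79, adjusted p = 0.796), that is 3.85-fold lower, and -1.14 without mouse 6224. Acod1, the itaconate-producing enzyme of activated macrophages, read -0.58, -0.68, -1.41 and -1.19 against 0.09, 1.92, -0.56 and 0.05, a difference of -1.34 (95% interval -2.13 to -0.55, adjusted p = 0.796) and of -0.82 without mouse 6224. Here too all Il4ra-deficient mice lay below the Il13-deficient ones, mice 4533 and 6226 lying close together. Saa1 differed by -1.66 (-0.81 without mouse 6224) for the probe used, but a second probe of the gene lay 0.78 higher in Il4ra-deficient mice. Of 13 tested acute-phase and antimicrobial genes 8 lay lower and 5 higher, the highest at 0.84, and 5 were past the unadjusted threshold, all lower, namely Saa3, Saa1, Acod1, Lcn2 and the copper carrier Cp (-0.62). The median of -0.62 became -0.14 without mouse 6224.

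Of 29 tested macrophage and monocyte genes 23 lay lower and 6 higher in Il4ra-deficient skin. Cd14, the co-receptor for bacterial lipopolysaccharide, read -1.31, -1.75, -1.64 and -1.77 against -0.76, 1.55, -1.24 and -0.60, a difference of -1.36 (95% interval -2.24 to -0.47, adjusted p = 0.891) and of -0.75 without mouse 6224. No Il4ra-deficient mouse reached the Il13-deficient range, whose lower end lay close to mouse 4533. Marco, a scavenger receptor of macrophages, read 3.06, 2.64, 0.49 and 0.72 against 2.97, 4.14, 2.42 and 3.35, a difference of -1.50 (95% interval -2.48 to -0.51, adjusted p = 0.891). The 2 Il4ra-deficient mice of series 45 lay within the Il13-deficient range and the 2 of series 57 far below it. With Cybb (-0.58), the NADPH oxidase subunit, these were the 3 of 29 list members past the unadjusted threshold, all lower. The list median was -0.23, and -0.07 without mouse 6224.

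T cell genes lay lower in Il4ra-deficient skin for 15 of 16 tested members. The recipients form no T cells of their own, but their NK and innate lymphoid cells can express some members of this list, and the source of the transcripts was not separated. Cd3g, a chain of the T cell receptor complex, read -0.38, -0.54, -0.54 and -0.52 in Il4ra-deficient and 0.31, 1.13, -0.33 and 0.46 in Il13-deficient mice. The groups did not overlap, but mouse 6226 lay near the Il4ra-deficient mice. The difference was -0.89 (95% interval -1.50 to -0.27, adjusted p = 0.942), and -0.64 without mouse 6224. Cd2, an adhesion receptor, read 1.57, 1.53 and 2.43 in the 3 Il4ra-deficient mice with a value (4533, 4534 and 5720) and 2.81, 3.47, 2.54 and 2.81 in Il13-deficient mice, a difference of -1.06 (95% interval -1.64 to -0.48, adjusted p = 0.771). Sh2d1a, the adaptor SAP, differed by -1.49 (95% interval -2.46 to -0.52, adjusted p = 0.891) over 4 and 3 mice, and Cd6 by -0.80 (95% interval -1.39 to -0.22, adjusted p = 1). The Cd6 value is that of the probe used, and a second probe of the gene differed by only -0.15. Cd8b1 (-1.20), Cd3d (-0.67) and Lat (-0.58) brought the count past the unadjusted threshold to 7, all lower. Cd4 differed by -0.03 and Cd8a by 0.08. The list median was -0.53, and -0.32 without mouse 6224. Averaged over 11 genes measured in every mouse, the Il4ra-deficient mice lay between 0.14 and 0.29, inside a range of 0.00 (mouse 6226) to 1.13 (mouse 6224) in Il13-deficient mice. In Rag2-/- mice given B10.D2 cells this mean was 1.00 to 1.65, and all 8 deficient mice except 6224 lay below that range.

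Cytotoxic genes and the interferon-γ response did not follow by the same margin. Ifng read 3.92, 4.05, 2.93 and 3.96 against 4.27, 4.33, 3.61 and 3.55, a difference of -0.23 (95% interval -0.68 to 0.23, adjusted p = 1), and without mouse 5718, the lowest, it was 0.04. Of 21 cytotoxic and NK cell genes 7 were tested, and all 7 lay lower in Il4ra-deficient skin. Among these, 1 was past the unadjusted threshold (Ccl5, lower by 1.01, and by 0.46 without mouse 6224). The list median was -0.31, and -0.17 without mouse 6224. Of 33 interferon-γ response genes 0 were past it, with a median of -0.06 (range -0.73 to 0.84). Whether the T cell and interferon-γ lists differ from each other was not tested.

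Type I interferon response genes lay slightly higher in Il4ra-deficient skin in 28 of 30 tested members. Xaf1, a proapoptotic interferon-stimulated gene, read 2.49, 2.69, 2.35 and 2.04 in Il4ra-deficient mice and 1.66, -0.26, 0.79 and 1.22 in Il13-deficient mice. All Il4ra-deficient mice lay above all Il13-deficient mice, and mouse 6224 was the lowest. The difference was 1.54 (95% interval 0.63 to 2.45, adjusted p = 0.796), that is 2.91-fold, and 1.17 without mouse 6224. Rsad2, the antiviral enzyme viperin, read 1.16, 1.59, 2.01 and 1.30 against 0.78, 1.29, -0.54 and 0.09, a difference of 1.11 (95% interval 0.44 to 1.79, adjusted p = 0.825). Here mouse 6224 fell within the Il4ra-deficient range and the difference was 1.41 without it. Isg15, the ubiquitin-like modifier, differed by 0.65 (95% interval 0.10 to 1.19) and Usp18, which removes it, by 0.58 (95% interval 0.04 to 1.12), both with adjusted p = 1. These 4 were past the unadjusted threshold, and 0 members lay past it lower. The list median was 0.30, and 0.38 without mouse 6224. The mean over 28 genes was 2.11 to 2.29 in Il4ra-deficient mice and 1.42 to 2.10 in Il13-deficient mice, groups that did not overlap by a narrow margin, and 1.94 to 2.66 in Rag2-/- mice given B10.D2 cells.

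**Figure D4:**
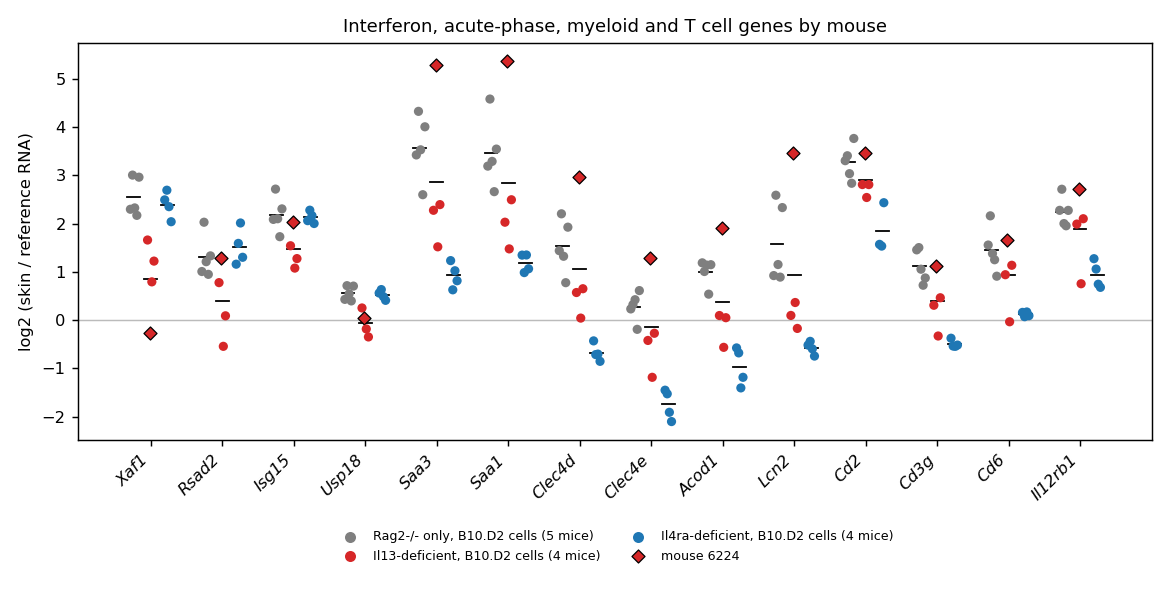
Log2 ratio of skin to reference RNA (y axis) for interferon, acute-phase, myeloid and T cell genes, each point 1 mouse and each bar a group mean, in Rag2-/- (grey), Il13-deficient (red; mouse 6224 as a diamond) and Il4ra-deficient mice (blue) given B10.D2 cells. For Clec4d the blue points lie below 0 and the red ones above it, whereas for Xaf1 the blue points (2.04 to 2.69) lie above the red (-0.26 to 1.66).

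Chemokines and their receptors were examined because the title of the study names CCL2. Ccl2, the attractant of monocytes, read -0.47, -0.46, -1.11 and -0.84 in Il4ra-deficient mice and -0.41, 0.87, -1.18 and -0.89 in Il13-deficient mice. The groups overlapped fully except for mouse 6224, with a difference of -0.32 (95% interval -0.97 to 0.34, adjusted p = 1) that became 0.11 without mouse 6224. Its close relative Ccl12 differed by -0.30 (95% interval -1.37 to 0.78, adjusted p = 1), and by 0.15 without mouse 6224. Of 17 tested CC chemokines, Ccl25, the ligand of CCR9, was past the unadjusted threshold higher, and Ccl11 and Ccl5 lower. Ccl25 read -0.86, -1.64, -1.03 and -1.39 against -3.30, -2.71, -1.73 and -1.76, and the groups did not overlap. Of 13 CXC and related chemokines, Cx3cl1 (0.47) lay higher and Cxcl1 (-1.43, or -0.66 without mouse 6224) and Cxcl12 (-0.36) lower.

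Ccr6, the receptor for CCL20 on Th17 and other lymphocytes, had one of the larger differences among receptors. It read 2.06, 2.13, 3.97 and 2.99 in Il4ra-deficient mice and 1.73, 1.05, 0.38 and 0.81 in Il13-deficient mice, without overlap, and the values of mice 5718 and 5720 were the highest. The difference was 1.79 (95% interval 0.74 to 2.85, adjusted p = 0.796), that is 3.47-fold, and 1.81 without mouse 6224. Ccr4, the receptor for CCL17, differed by 1.14 (95% interval 0.20 to 2.08), and Cxcr3, the receptor for interferon-induced chemokines, by -0.87 (95% interval -1.68 to -0.07), both with adjusted p = 1. Over 14 tested receptors these 3 were past the unadjusted threshold, and the median was 0.19. Csf2, the growth factor GM-CSF, read 1.09, 1.47, 0.38 and 2.06 against 0.24, 0.27, 0.44 and 0.40, a difference of 0.91 (95% interval 0.38 to 1.45, adjusted p = 0.796) with mouse 5718 inside the other range. Il12rb1, a receptor chain for IL-12 and IL-23, differed by -0.95 (95% interval -1.58 to -0.33, adjusted p = 0.891).

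Genes of lipid synthesis and fat lay higher in Il4ra-deficient skin in part. Fasn read 1.61, 1.83, 2.24 and 2.98 against 1.34, 0.03, 1.55 and 0.99, without overlap, a difference of 1.19 (95% interval 0.56 to 1.81, adjusted p = 0.771) and of 0.87 without mouse 6224. Scd1 and Elovl6, which desaturate and elongate fatty acids, differed by 1.29 and 1.35, and by 0.57 and 0.55 without mouse 6224, where both genes were lowest. These 3 of 18 tested genes were past the unadjusted threshold, and the median of 0.29 was 0.13 without mouse 6224. Pparg, the master regulator of fat cell formation, read 1.70, 1.67, 1.70 and 1.57 against 1.34, 0.84, 1.14 and 1.23, without overlap, a difference of 0.52 (95% interval 0.14 to 0.90, adjusted p = 1). Lep, the fat hormone leptin, read 2.91, 3.19, 1.28 and 4.67 against 0.64, 0.13, 1.46 and 1.55, a difference of 2.07 (95% interval 0.12 to 4.01, adjusted p = 1), with overlap through mouse 5718. Over 17 adipocyte genes the median was 0.12, and -0.01 without mouse 6224.

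Matrix and scar-related genes did not separate the genotypes. Col1a1, the main collagen of dermis, read -0.64, -0.75, -0.53 and -0.55 against -1.43, -1.74, -0.55 and -0.22, a difference of 0.37 (95% interval -0.30 to 1.03) and of 0.12 without mouse 6224. Tgfb1 differed by -0.34 (95% interval -0.92 to 0.24), and both had adjusted p = 1. Over 26 fibrillar matrix genes the median was 0.06 (-0.02 without mouse 6224), with Postn alone past the unadjusted threshold. Over 23 fibrosis activation genes the median was -0.04 with and without mouse 6224. Among them Ccn2 (1.41, or 0.70 without mouse 6224) and the collagenase gene Mmp13 were past the threshold. Mmp13 read -0.33, -0.92, 0.40 and 0.38 in Il4ra-deficient mice and -4.29, 1.36, -2.64 and -2.25 in Il13-deficient mice. Mouse 6224 lay above every Il4ra-deficient mouse and the other 3 Il13-deficient mice below them, so the difference of 1.84 (95% interval 0.14 to 3.53, adjusted p = 1) became 2.94 without mouse 6224 (adjusted p = 0.445).

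The lists of structural skin cells held 0 genes that passed. Stressed keratinocyte genes had a median of -0.38 (0.01 without mouse 6224), and smooth muscle and pericyte genes one of -0.17 (-0.27 without mouse 6224). Basal keratinocyte genes had a median of 0.14 (0.01 without mouse 6224). Col7a1, the anchoring fibril collagen (0.89, or 0.41 without mouse 6224), was their 1 member past the unadjusted threshold. Keratinocyte differentiation genes (0.08), skeletal muscle (0.07) and melanocyte and nerve genes (0.04) lay close to 0. Without mouse 6224 these medians were 0.03, 0.02 and -0.03 in turn. Hair follicle genes lay at 0.29 (0.14 without mouse 6224) with values from -0.69 to 2.18. Of 18 endothelial genes 14 lay lower, with a median of -0.35 (-0.23 without mouse 6224); Eng (-0.36) and Sox18 (-0.84) were past the unadjusted threshold, and Sox18 lay at 0.33 when an exact 0 was kept as a value. Tpsab1, a mast cell tryptase (0.93, 2 mice of each group), and Prg2, a granule protein of eosinophils (1.36, 3 and 2 mice), were higher with few measured mice and with adjusted p = 1.

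Of 16 tested clock genes 12 lay lower and 4 higher in Il4ra-deficient skin, and 0 passed. Per2, a repressor of the circadian clock, read 0.09, -0.38, -1.45 and -0.31 in Il4ra-deficient mice and 0.92, 0.01, 1.43 and 0.94 in Il13-deficient mice, with overlap through mice 4533 and 6224. Its difference was -1.34 (95% interval -2.0 to -0.67, adjusted p = 0.771), and -1.61 without mouse 6224, but a second probe lay 0.16 higher in Il4ra-deficient mice. Cry1, its partner, read -0.42, -0.86, -1.31 and -0.62 against 0.16, 0.34, 0.34 and -0.15, without overlap, a difference of -0.97 (95% interval -1.53 to -0.42, adjusted p = 0.796). With Bhlhe40 (-0.54) 3 clock genes were past the unadjusted threshold, all lower, while Per1 (-0.04) and Nr1d1 (-0.03) lay near 0. The list median was -0.17, and -0.37 without mouse 6224. The hour at which skin was taken is not given in the labels.

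Genes next to the deleted loci were counted because DNA flanking a deletion can stem from another strain. Of 39 tested among 50 neighbours of Il13, 1 was past the unadjusted threshold (Csf2, described above), and the median difference was -0.005. Of 42 tested among 50 neighbours of Il4ra, Nupr1 (0.47) lay higher and Sult1a1 (-1.01) and Lat (-0.58) lower, and the median was -0.0006. Thus 1 of 39 and 3 of 42 were past the unadjusted threshold, beside 625 of all 14783 genes tested (4.23%). After adjustment 0 neighbours passed.

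The same genotypes were compared after transfer of BALB/c cells, in mice that share no animal with those above. There 181 of 14783 genes passed (1.22%), 88 higher (0.595%) and 93 lower (0.629%) in Il4ra-deficient mice. Without Il13-deficient mice 6229 and 6234, 1 gene passed, and the count was 78 to 115 without mouse 4533, 4534, 5718, 5720, 6223 or 6232, which enter only through the estimate of the spread. Whether the genotype difference depends on the donor was tested directly, and 0 genes passed (0%), with 1839 at an unadjusted p under 0.05 (12.4%); 8 passed without mouse 6226 and 1 without mouse 5720, and 5 (Pygl, Gstt2, Lrmda, Pmel and Cd37) with the number series as a fixed term, which is estimable here and was added after seeing the data. The smallest p belonged to Pygl, which encodes a glycogen phosphorylase. With B10.D2 cells Pygl read 3.05, 3.24, 3.02 and 3.61 in Il4ra-deficient and 3.35, 3.93, 3.16 and 3.20 in Il13-deficient mice, and the groups overlapped. With BALB/c cells it read 4.05, 4.58 and 4.02 in Il4ra-deficient and 3.09, 2.61, 2.73 and 2.64 in Il13-deficient mice, without overlap. The genotype difference was -0.18 with B10.D2 and 1.45 with BALB/c cells (adjusted p = 0.00462), and these differed by -1.64 (95% interval -2.20 to -1.08, adjusted p = 0.0697), which passed under 7 of 23 alternatives.

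Of the other genes with the smallest p for this dependence on the donor, Gstt2 (-1.51) and Lrmda (-1.29) had the same adjusted p of 0.0697. Gimap6 (-2.06), Cybb (-1.95), Hhex (-1.95), Gcat (1.64), Pmel (2.74), Slc45a2 (3.68) and Porcn (1.67) had 0.0916, and Car12 (1.87) and Mfsd2a (1.53) 0.122. Gstt2 and Gimap6 lay lower in Il4ra-deficient mice with B10.D2 cells and higher with BALB/c cells (0.73 and 0.92), and Porcn the reverse (-0.77 with BALB/c cells). For the pigment genes Pmel and Slc45a2 the genotypes lay close with B10.D2 cells (0.01 and 0.34) and far apart with BALB/c cells (-2.73 and -3.34). Pmel read 0.60, 0.63 and 1.71 in Il4ra-deficient and 3.18, 3.81, 3.83 and 4.04 in Il13-deficient mice given BALB/c cells. The hair follicle list moved with these values, with a median genotype difference of -3.97 after BALB/c cells against 0.29 after B10.D2 cells; its part in the result was not tested. Of the genes discussed above, Xaf1 lay higher in Il4ra-deficient mice with either donor (1.96 with BALB/c cells, adjusted p = 0.045). So did Pparg (0.86, adjusted p = 0.0424), and Srp54a lay lower with either (-0.60, adjusted p = 0.0488). Without mice 6229 and 6234, 0 genes passed higher with BALB/c cells, so the calls of Xaf1, Pparg and Pygl were lost. All Il13-deficient mice have numbers of series 62 with either donor, so genotype and number series cannot be told apart here either.

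**Figure D5:**
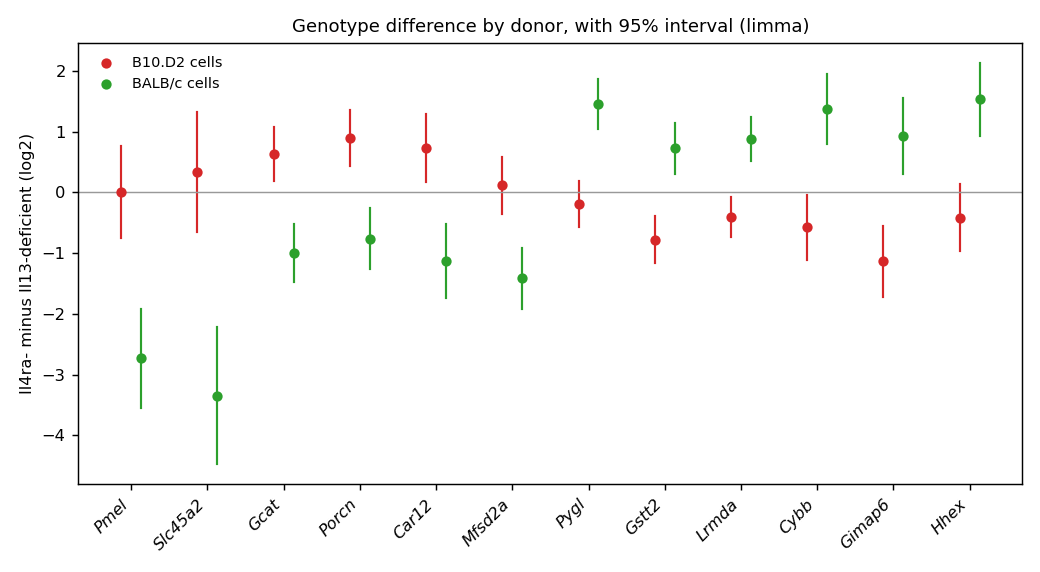
Genotype difference (y axis, log2, Il4ra-deficient minus Il13-deficient) with its 95% interval from limma, in mice given B10.D2 cells (red) and BALB/c cells (green), for the 6 genes with the smallest p for dependence on the donor in each direction. For Pygl the green value is 1.45 and the red -0.18; the lowest adjusted p for dependence on the donor was 0.0697.

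Each deficient group was also set beside Rag2-/- mice given B10.D2 cells, the 5 mice that both comparisons share. Il4ra-deficient mice differed from them in 119 genes (0.805%), 40 higher (0.271%) and 79 lower (0.534%), and Il13-deficient mice in 0 (0%), with 850 at an unadjusted p under 0.05 (5.75%). The direct comparison of the deficient groups, in which 0 passed, is the test of whether they differ. Without mouse 6224 the counts were 326 for Il4ra-deficient and 87 for Il13-deficient mice. The count of 119 was 187 without mouse 6226, 6 to 56 without 1 of the 4 Il4ra-deficient mice, and 19 to 46 without Rag2-/- mouse 5701, 5704, 6151 or 6154. Series 57 holds mice of both groups; with the number series as a fixed term 3 genes passed (Marco, Cd37 and Cyp2g1), and within series 57, 2 mice against 2, Marco alone. The genes that passed in Il4ra-deficient mice included Marco, Clec4d, Saa3, Cd3g, Gimap6 and Ccl2, which were lower, and Fasn and Trp53inp2, which were higher.

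Marco read 4.44, 4.46, 4.62, 4.42 and 5.85 in the Rag2-/- mice, above every Il4ra-deficient mouse. It lay lower by 3.03 in Il4ra-deficient mice (SE 0.45, adjusted p = 0.00901) and by 1.53 in Il13-deficient mice (SE 0.45, adjusted p = 0.412). Its difference in Il4ra-deficient mice was -3.80 with the number series as a fixed term (adjusted p = 0.00083) and -3.84 within series 57 (adjusted p = 0.00108). With only the Il4ra-deficient mice of series 45 it was -1.91 (adjusted p = 0.241), and this was the 1 alternative under which the call of Marco was lost. Ccl2 read 0.60, 0.86, 0.61, 0.19 and 1.14 in the Rag2-/- mice, and every mouse of the deficient groups except 6224 lay below that range. Its difference was -1.40 in Il4ra-deficient mice (SE 0.30, adjusted p = 0.0305) and -1.08 in Il13-deficient mice (SE 0.30, adjusted p = 0.408). Clec4d differed by -2.21 (adjusted p = 0.0193) and -0.48 (adjusted p = 0.982), Saa3 by -2.65 (adjusted p = 0.0251) and -0.71 (adjusted p = 0.982), and Cd3g by -1.62 (adjusted p = 0.0161) and -0.73 (adjusted p = 0.731), in Il4ra-deficient and Il13-deficient mice in turn. Gimap6 differed by -1.48 (adjusted p = 0.0193) and -0.34 (adjusted p = 0.982). Fasn lay 1.34 higher in Il4ra-deficient mice (adjusted p = 0.0305) against 0.15 in Il13-deficient mice (adjusted p = 0.993), and Trp53inp2 0.71 (adjusted p = 0.0263) against 0.03 (adjusted p = 0.999). Il4ra itself differed by -1.47 (adjusted p = 0.0731) and -0.54 (adjusted p = 0.982). The calls of these genes other than Marco were lost with the number series as a fixed term (adjusted p = 0.0818 to 0.181) and within series 57 (0.207 to 0.395). In all, calls were lost under 1 alternative for Marco, 6 for Cd3g and Gimap6, 8 for Clec4d, 9 for Trp53inp2, 10 for Fasn, 11 for Saa3 and 12 for Ccl2.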

How the data were processed

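Skin RNA of each mouse was measured on 2-colour Agilent arrays, with Cy3 for skin and Cy5 for reference RNA, per the labels. The authors deposited 1 log2 ratio of reference to skin per probe and array; no source used here names the scanner, the background correction or the normalization behind it. The base was taken as 2 because ratios of small whole numbers and their inverses recur among dim probes at log2 spacings: the spacing of 2 was found in 56 of 5320 pairs, the highest of all spacings, whose median was 9. The sign was turned to skin over reference; this direction follows from the labelled dyes together with the keratinocyte and cell division genes. An exact 0 was read as not measured, which the labels do not state. Arrays of one mouse were averaged. The 2 arrays of mouse 6232 correlated at 0.924 over all probes measured on both. Correlations between mice were taken over genes measured in all 24 mice, so they are not comparable with that value. Scanner intensities were not used here, dim probes therefore carry no bound, and precision is limited by how many arrays there are.

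Of 41174 probes 32664 had 1 gene name, 45 several and 8465 none in the platform annotation; 0 symbols changed through the RefSeq gene table of GRCm38.p6. Probes of one gene were averaged over those measured in most mice and sharing the commonest pattern of missing mice. Genes with at least 2 measured mice in each of the 6 groups were tested, 14783 of 19532. Group means were fitted over all 24 mice with limma 3.58.1 in R 4.3.3 (lmFit and eBayes), and two-sided p-values were adjusted by the Benjamini-Hochberg method over all genes tested, with 0.05 as the threshold. All p-values in the text come from this fit or its alternatives. Replicates are separate mice by their numbers; cage, litter and experiment are not given.

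The members and gene lists were chosen with earlier results of these data known. Named genes are up to 8 per direction by smallest p among genes measured in all 8 mice with no overlap, clone names aside, where none passed; up to 4 per list by smallest p; genes of the pathway and of the study's subject; and 6 per direction for dependence on the donor. Cd3d, Cd8b1, Cd4, Cd8a, Lat, Cp, Per1, Nr1d1, Nupr1, Sult1a1, Cd37, Cyp2g1, Pyy and Fetub were named after their values were seen. Alternatives concerned missing and dim values, normalization, probe choice, the prior, array weights, the number series and single mice.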

Additional observations from a re-analysis of the deposited data

Results flagged for a closer look

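Within a group of 4 mice, 1 value was taken to stand apart when its gap to the nearest of the others, as a share of the group's range, exceeded Dixon's critical value. Of 161 groups of values tested this way 10 were met, and chance flags about 1 in 20 groups; 6 of the 10 concerned mouse 6224. In that Il13-deficient mouse Lcn2 lay at 3.46 (others -0.17 to 0.36), Gstt2 at 1.15 (0.49 to 0.58), Elovl6 at 0.14 (3.28 to 3.42), Scd1 at 0.44 (3.20 to 3.57), Col7a1 at 1.31 (3.13 to 3.34) and Ccl24 at -1.85 (-0.46 to -0.20). Lcn2 and Gstt2 thus lay high in mouse 6224, and the lipid genes, Col7a1 and Ccl24 low. Among Il4ra-deficient mice, mouse 5718 had the lowest Ifng (2.93, others 3.92 to 4.05) and Il13 (-0.62, others 0.65 to 0.81) and the highest Gcat (0.46, others 0.32 to 0.33). Mouse 4533 had the highest Cd3g (-0.38, others -0.54 to -0.52), a gap that is large only beside the small range of the other 3.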

How the results depend on the processing

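The count of 0 genes between the deficient groups given B10.D2 cells held under 22 of 23 alternatives, with 355 to 1360 genes at an unadjusted p under 0.05; with array weights 1 gene passed (Pyy, -2.81, adjusted p = 0.0278). Of 89 tested genes followed singly, 78 kept their sign throughout; Ccl2, Ccl12, Retnla and Stat6 turned without mouse 6224 (Retnla and Stat6 also with array weights), Cd207, Dsc1, Sox18 and Arg1 when exact 0 was kept as a value, and Ifng, Pmel and Slc45a2 under others. With BALB/c cells the count of 181 was 58 with exact 0 kept, 313 with dim values as missing, 317 over genes in all mice and 3143 with array weights. It was 576 with the number series as a random block (correlation -0.05), 1 without 6229 and 6234, and 78 to 217 without single mice. Keeping only series 45 or only series 57 of the Il4ra-deficient mice given B10.D2 cells gave 53 and 35. Those mice enter the BALB/c comparison only through the estimate of the spread. For dependence on the donor, 2, 1, 1 and 1700 genes passed in the first 4 of these settings. With only the series 57 mice of the Il4ra-deficient group given B10.D2 cells 1 passed, and 1 without 6229 and 6234 (Fetub, 3.89). The count was 5 with the number series as a fixed term, and 0 to 8 without single mice. Il4ra-deficient against Rag2-/- mice gave 66 with exact 0 kept, 932 with array weights and 212 without 6229 and 6234. With Il4ra-deficient mice of series 45 or 57 only, against all Rag2-/- mice given B10.D2 cells, the counts were 0 and 5. The fixed term gave 3, the comparison within series 57 gave 1 (Marco), and leaving out single mice gave 6 to 326. Il13-deficient against Rag2-/- mice gave 1 with dim values as missing, 239 with array weights, 3 with the random block, 4 without 6229 and 6234, and 0 to 87 without single mice. Leaving out Rag2-/- mice, the fixed term and the comparison within series 57 were added after seeing the data. The cause of these changes was not tested. No paired analysis was possible because mouse numbers are not shared between groups. A fixed term for number series is not estimable for Il4ra- against Il13-deficient mice with either donor or for Il13-deficient against Rag2-/- mice.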
